A study of Mus musculus with 28 samples.

Results

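Transcription factors whose mRNAs are known to be translated in axons, and whose proteins can then be carried back to the nucleus, were followed in the ribosome-bound mRNA of mouse retinal axons. The set held 10 of the 23995 genes listed: Atf4, Creb1, Stat3, Smad1, Smad2, Smad4, Smad5, Srebf2, Jun and Ddit3. The rule that chose them used no value of these data, though earlier results of these data were known. All 10 have a row in every file, and all are discussed.

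A transcription factor made in an axon is a special kind of cargo. Its mRNA is transported into the axon and translated on local ribosomes when a neurotrophin, a morphogen or an injury reaches the terminal. The new protein is bound by importins and pulled along microtubules by dynein to the cell body, where it alters transcription. CREB1 relays neurotrophin signals, and the SMADs relay those of BMP and TGF-beta. ATF4 and DDIT3 (CHOP) belong to the integrated stress response, STAT3 and JUN respond to axon injury, and SREBF2 drives the genes of cholesterol synthesis.

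Axon-TRAP isolates the mRNA on tagged ribosomes. The RiboTag knock-in allele carries an HA-tagged copy of Rpl22, a ribosomal protein gene, that Cre recombination switches on. It was crossed with Pax6-alpha-Cre on a C57BL/6 background. This Cre is transiently active in progenitors of the peripheral retina, so retinal ganglion cells (RGCs) carry the tag, but so do other retinal neurons, and the retina samples therefore hold more than RGCs. In the superior colliculus (SC), a main target of RGC axons, the tag is expected on RGC axons and not on resident cells. Immunoprecipitates from Cre-positive SC, from the Cre-negative SC of untagged littermates, which measures background, and from retina were sequenced at 4 stages, the adult and 3 earlier ones named by embryonic (E) or postnatal (P) day, which are E17.5, P0.5 and P7.5. Each of these 12 groups had 2 libraries, from pooled tissue of several animals. A run-off experiment added 4 adult libraries. Lysates of Cre-positive SC or of retina were sequenced once untreated and once after incubation in rabbit reticulocyte lysate with harringtonine and 4E1RCat, in which elongating ribosomes finish and leave their mRNA. The labels number the replicates but do not name animals, so p-values measure only the spread between these libraries, part of which may be technical.

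Depth differed widely between libraries. The files hold FPKM (fragments scaled by transcript length and by library size) and no totals. From the steps between low values, the libraries held an estimated 482525 to 13663472 fragments, and the 4 adult SC libraries held only 520731 to 2114641. The number of genes above 0 did not follow depth: the shallowest library, replicate 1 of Cre-negative SC at E17.5, had 4374, and the deepest, its replicate 2, had 3018. Many common mRNAs are listed at 0: Rpl22 itself was at 0 in 12 of the 16 SC libraries. A gene at 0 is therefore described as listed at 0 and not as absent. Of the 8 RGC markers, between 1 and 6 were above 0 in a Cre-positive SC library and between 0 and 5 in a Cre-negative one. Rbpms, a defining RGC marker, was listed at 0 in all 16 SC libraries and above 0 in 4 of 8 retina libraries. In bulk samples, fewer tagged axons and less mRNA per axon cannot be told apart.

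The leader of the Atf4 mRNA is shown first, because ribosomes on it are not all making ATF4. Ribosomes start at short upstream reading frames, and a stress that slows initiation shifts them to the main start codon. An immunoprecipitate of ribosomes collects the mRNA in either state, and FPKM counts reads over the whole transcript. The Atf4 gene (ENSMUSG00000042406) lies on the plus strand of mm10 at chr15:80255184-80257541. Its principal GENCODE transcript is 1725 bases long, with a leader of 594 bases that holds 3 upstream ATGs. Each start codon is printed in capitals with 9 bases on either side.
First upstream start, chr15:80255294-80255314: ttttctctcATGgggccttta
Middle upstream start, chr15:80255573-80255593: gcggccaccATGgcgtattag
Last upstream start, chr15:80255672-80256213, across an intron: gcctaagccATGgcgctcttc
Main start, chr15:80256290-80256310: ccccacaacATGaccgagatg

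From these starts the reading frames run for 36, 3, 59 and 349 codons. The last upstream frame overlaps the start of the coding sequence by 83 bases in another frame, so that ribosomes that read it cannot begin at the main ATG on the same pass. Of the 10 genes, 7 had at least 1 upstream ATG in the leader of their principal transcript, with 3 each in Atf4 and Smad5 and 2 each in Stat3, Smad1, Srebf2 and Ddit3. Smad4 had 1, and Creb1, Smad2 and Jun had 0. Among 18905 genes with an annotated leader, 54.2% had an upstream ATG.

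The other members are spread over the genome. In mm10, Creb1 lies at chr1:64532645-64604548, Jun at chr4:95049034-95052222, Smad1 at chr8:79338395-79399518, Ddit3 at chr10:127290774-127296288, Stat3 at chr11:100885098-100939540, Smad5 at chr13:56703010-56742377 and Srebf2 at chr15:82147181-82205379. Smad2 and Smad4 are both on chromosome 18. Exons of Stat3 overlap those of Stat5a on the opposite strand, and those of Ddit3 overlap Mars. The strand of counting is not given in the sources used here, so reads from these overlaps cannot be assigned with certainty.

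Few of the 10 mRNAs were above 0 in Cre-positive SC at any stage. At P0.5, Atf4, Smad1, Smad4 and Srebf2 were above 0 in both Cre-positive SC libraries. Smad1 and Stat3 were at E17.5, Atf4 alone was in the adult, and 0 members were at P7.5. Above 0 in either library were 1 member in adults and, in stage order before that, 5, 4 and 3 members. Smad2, Smad5 and Ddit3 were listed at 0 in all 8 Cre-positive SC libraries. Creb1 and Jun were each above 0 in 1 of them, at 0.0190 and 0.129 FPKM, less than an estimated 3 fragments. Jun was also at 1.28 FPKM in replicate 1 of Cre-negative SC at P7.5. Retina libraries held more: 8 of the 10 were above 0 in both at E17.5 and 7 at P0.5.

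**Figure D1:**
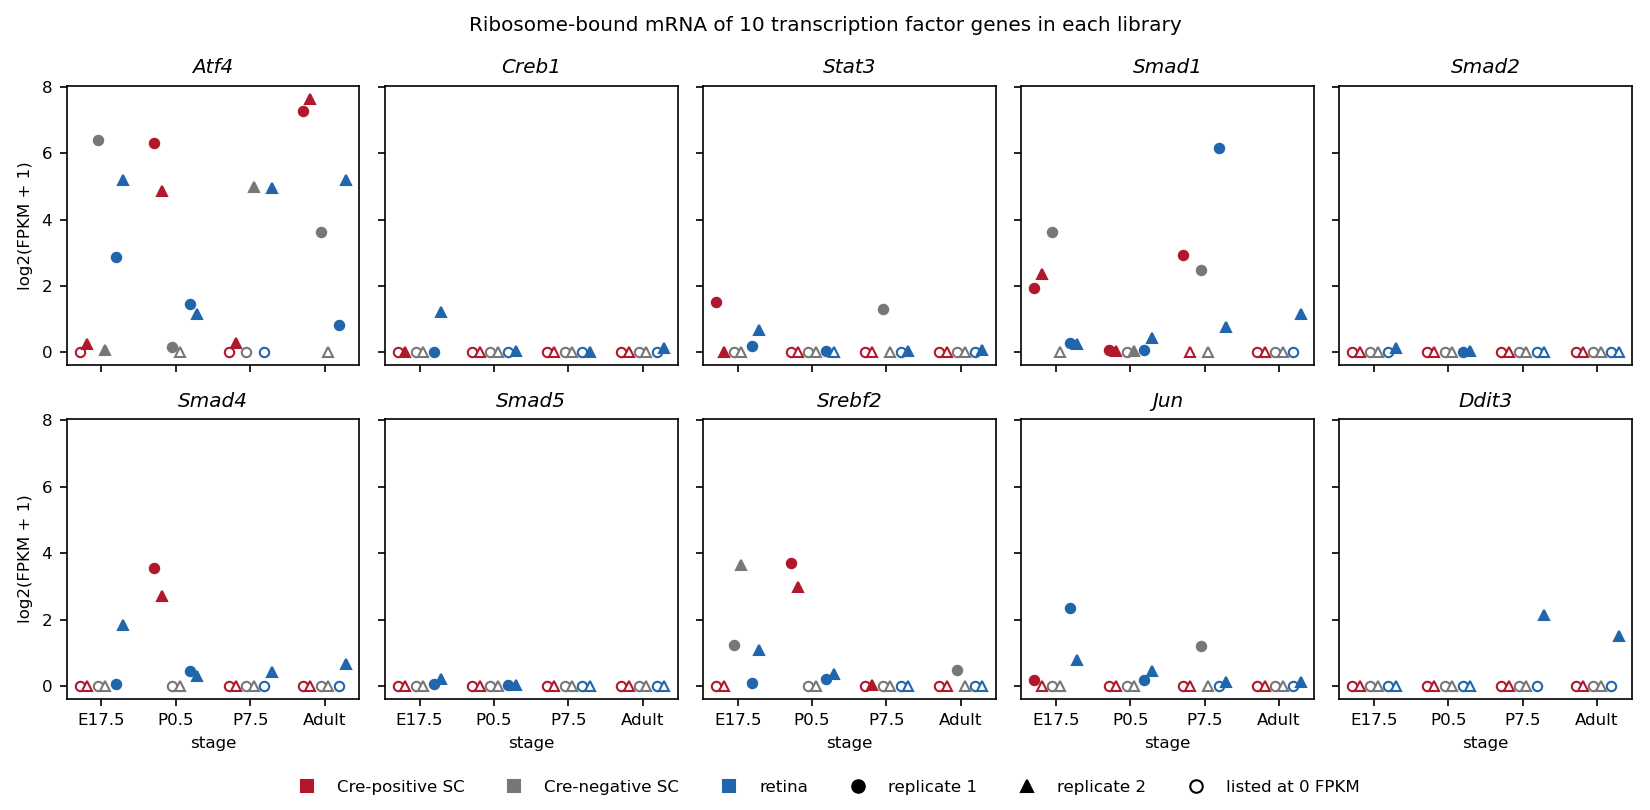
Ribosome-bound mRNA of the 10 transcription factor genes, as log2(FPKM + 1), in each of the 24 libraries by stage. Cre-positive SC is red, Cre-negative SC grey and retina blue, circles and triangles are replicates 1 and 2, and open symbols are listed at 0. Smad4 is above 0 in SC only in the 2 P0.5 Cre-positive libraries. Atf4 is high in both Cre-positive libraries at P0.5 and in adults. It is also high in some Cre-negative SC and retina libraries, replicate 2 of adult retina among them.

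Cre-positive and Cre-negative SC were compared to ask which mRNAs stood above the background of the precipitation. The test was limma on log2(FPKM + 1) over the 16 SC libraries, with Benjamini-Hochberg adjusted p-values over the 5983 genes with 1 FPKM or more in 2 libraries, and a gene was called at an adjusted p of at most 0.05. Only Atf4, Stat3, Smad1, Smad4 and Srebf2 passed this filter. At P0.5, 2 of these 5 were called higher in Cre-positive SC, Smad4 and Srebf2, and 0 lower. Over all genes tested at P0.5, 28.1% were called higher and 4.35% lower. The median difference of the 5 members was 3.13 on the log2(FPKM + 1) scale, and that of all genes was 0.78. Smad4 passed the filter only through the group where it was high, so its call was set by that selection, and the count and the median are a description.

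Smad4, the partner that SMAD1, SMAD2 and SMAD5 share for entry into the nucleus, was above 0 in a single SC group. Its level in Cre-positive SC at P0.5 was 10.6 FPKM in replicate 1 and 5.59 FPKM in replicate 2, an estimated 229 and 159 fragments. In the other 14 SC libraries, Cre-negative P0.5 included, Smad4 was listed at 0. The groups do not overlap at P0.5. The difference of means was 3.13 on the log2(FPKM + 1) scale. With Cre-negative SC listed at 0, that difference depends on the pseudocount and is not a fold. Its spread among SC libraries comes from the 2 P0.5 Cre-positive libraries alone, and with either of them left out Smad4 no longer reached the filter, so no p is given for it here.

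The stage comparisons of Smad4 restate this observation. In Cre-positive SC the differences were 3.13 from E17.5 to P0.5 and -3.13 from P0.5 to P7.5 on the log2(FPKM + 1) scale, and the interaction of Cre with stage, which asks whether the difference between Cre-positive and Cre-negative SC itself changed, had the same values. All rest on the same 2 libraries.

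Srebf2, a membrane-bound factor that is cleaved and released when sterols run low, was also above 0 in both Cre-positive SC libraries at P0.5. Unlike Smad4, it was above 0 in Cre-negative SC at E17.5 too. In Cre-positive SC at P0.5 it was at 11.9 and 6.88 FPKM, an estimated 385 and 293 fragments, and both Cre-negative libraries were listed at 0. The difference was 3.33 (SE 0.70) with an adjusted p of 0.00368 by limma. Without replicate 1 of Cre-positive SC at P0.5 it was 2.98, with an adjusted p of 0.106.

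At E17.5 the direction of Srebf2 was the other way. Both Cre-positive libraries were listed at 0, while the Cre-negative libraries were at 1.33 and 11.6 FPKM, so that the background lay above the tagged samples. This difference of -2.44 (SE 0.70) did not pass, with an adjusted p of 0.201 by limma. Without replicate 1 of Cre-negative SC at E17.5, a library of an estimated 482525 fragments, it was -3.65 with an adjusted p of 0.00290 by limma. The interaction of Cre with stage from E17.5 to P0.5 was 5.77 (SE 0.99) for Srebf2, with an adjusted p of 0.00157 by limma.

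After P0.5 Srebf2 was at or near 0 in Cre-positive SC. At P7.5 it was at 0 and 0.0208 FPKM in Cre-positive SC, and in the adult at 0 in both. It fell by 3.32 (SE 0.70, adjusted p = 0.00409 by limma) from P0.5 to P7.5. Without replicate 1 of Cre-positive SC at P0.5 the adjusted p of this fall was 0.129 by limma. The interaction over this interval had an adjusted p of 0.0355 by limma. That call was lost whichever of the 8 libraries compared was left out (0.0817 to 0.315), without the filter on low values (0.0545) and with the replicate number as a block (0.0534).

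Atf4 reached the highest levels of any member but the least even ones. This bZIP factor is translated preferentially under stress and turns on amino acid and chaperone genes. The Cre-positive SC libraries held 0 and 0.184 FPKM on E17.5, 78.3 and 27.9 FPKM on P0.5, 0 and 0.220 FPKM on P7.5, and 152 and 199 FPKM as adults. The stages alternate: both P0.5 and both adult libraries were high, and both E17.5 and both P7.5 libraries were at or near 0. In the adult these levels ranked above 92.7% and 88.4% of the genes above 0 in their library.

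Background for Atf4 was high in single libraries. The Cre-negative SC libraries held 83.7 and 0.0548 FPKM on E17.5, 0.117 and 0 FPKM on P0.5, 0 and 30.4 FPKM on P7.5, and 11.4 and 0 FPKM as adults. The 83.7 FPKM came from an estimated 69.7 fragments and the 30.4 FPKM from 521, so neither is a value of a few fragments. Cre-positive and Cre-negative SC did not overlap at P0.5 and in the adult, and overlapped at E17.5 and P7.5.

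No difference of Atf4 between Cre-positive and Cre-negative SC passed the test across all SC libraries. At P0.5 it was 5.50 (SE 2.10) with an adjusted p of 0.0717, and in the adult 5.64 (SE 2.10) with an adjusted p of 1, both by limma. At E17.5 and P7.5 it was -3.12 and -2.34, with adjusted p-values of 0.653 and 1 by limma. With the P0.5 libraries fitted alone, Atf4 passed the filter only through the Cre-positive libraries, where it was high, so no p is given for that fit. The spread that limma estimated for Atf4 includes the gap between the Cre-negative replicates at E17.5 and P7.5.

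A rebuilt form of NOISeq, the method the study names, ranks a difference against those between replicates and calls it at a probability of 0.7. It called another member than limma did. Atf4 was the one member called at each of the 4 stages. It was higher in Cre-positive SC on P0.5 (probability 0.906) and in adults (0.834), and lower on E17.5 (0.843) and P7.5 (0.822). Smad4 and Srebf2 at P0.5 had probabilities of 0.665 and 0.689 and were not called. At the same probability, 2.56% of the genes present on E17.5 were called higher and 6.87% lower. The shares were 28.9% and 6.05% on P0.5, 3.93% and 4.44% on P7.5, and 10.2% and 11.6% in adults.

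**Figure D2:**
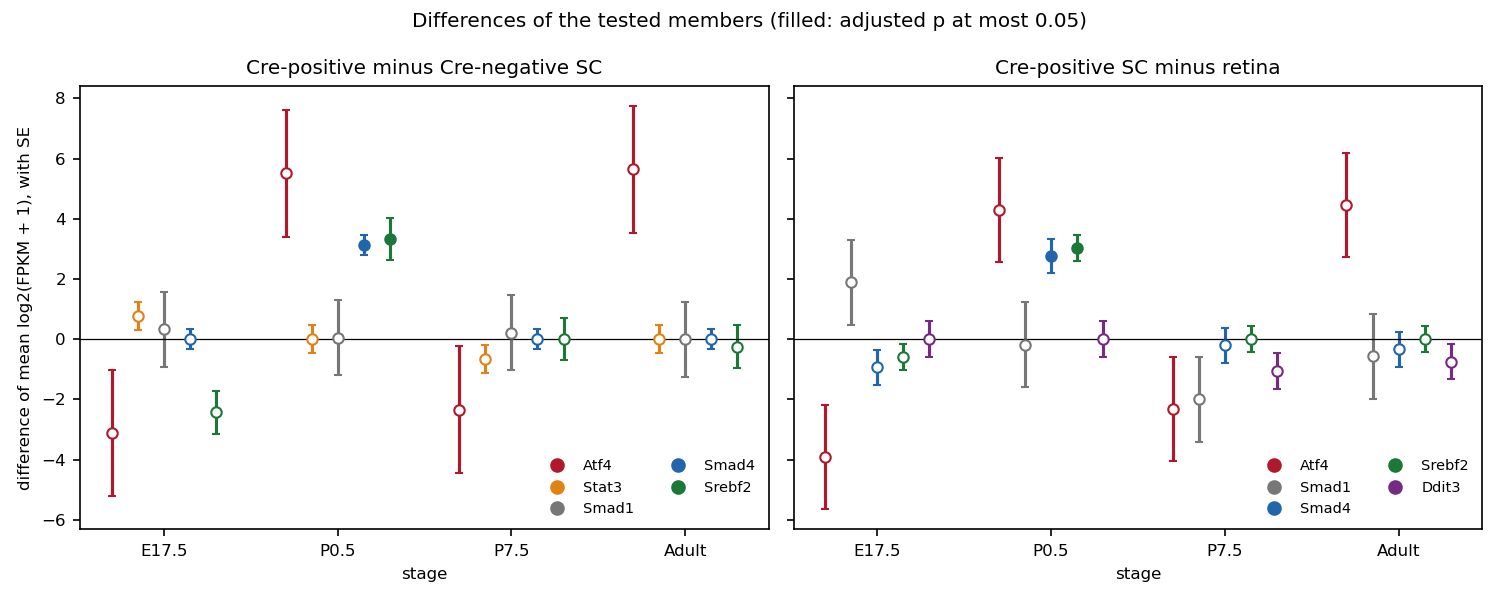
Differences of mean log2(FPKM + 1) with their SE from limma, between Cre-positive and Cre-negative SC (left) and between Cre-positive SC and retina (right), by stage for the members tested. Filled symbols mark an adjusted p of at most 0.05, which in both panels are Smad4 and Srebf2 at P0.5. Smad4 in both panels, and Srebf2 in the right one, passed the filter only through P0.5 Cre-positive SC. The bars of Atf4 are the widest.

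At the other stages 0 of the 5 tested members were called between Cre-positive and Cre-negative SC by limma, where 0.468% of genes were called higher and 1.1% lower on E17.5, and 0% either way on P7.5. Adult SC had 0.0836% of genes higher and 0.0669% lower. An unadjusted p under 0.05 was found for 1 member at E17.5, Srebf2, 0 at P7.5 and 1 in the adult, Atf4. The median difference of the 5 members was 0 at each of these stages.

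Smad1, which carries BMP signals from the receptor, was not called between Cre-positive and Cre-negative SC at any stage. Its highest level in SC was in a Cre-negative library, 11.5 FPKM at E17.5 from an estimated 17.2 fragments. The Cre-positive SC libraries held 2.85 and 4.14 FPKM on E17.5, 0.0509 and 0.0385 FPKM on P0.5, and 6.59 and 0 FPKM on P7.5. Those of Cre-negative SC held 11.5 and 0 FPKM on E17.5, 0 and 0.0293 FPKM on P0.5, and 4.63 and 0 FPKM on P7.5. All 4 adult SC libraries were listed at 0. The P0.5 values amount to about 1 fragment each, so the absence of overlap at that stage is not evidence of a difference. The differences of Smad1 were 0.33, 0.04, 0.22 and 0 from E17.5 to the adult, each with an SE of 1.25 and an adjusted p of 1 by limma.

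Stat3, the transducer of cytokine signals after axon injury, was above 0 in Cre-positive SC at 1 stage. It was at 1.85 and 0.0180 FPKM in Cre-positive SC at E17.5, an estimated 60.5 fragments and 1 fragment, with both Cre-negative libraries listed at 0. In replicate 1 of these Cre-negative libraries, 3 fragments of Stat3 would be 1.38 FPKM. Stat3 was also at 1.47 FPKM in 1 Cre-negative SC library at P7.5. The other SC libraries were listed at 0. The E17.5 difference was 0.77 (SE 0.47) with an adjusted p of 0.613 by limma.

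Groups that do not overlap were common at P0.5. All 4 members above 0 in any P0.5 SC library were higher in both Cre-positive libraries than in both Cre-negative ones, and so were 62.2% of all genes above 0 there. At E17.5, Stat3 was higher and Srebf2 lower without overlap, where 6.09% of genes were higher and 5.81% lower. In the adult only Atf4 was higher without overlap, against 4.59% of genes higher and 5.1% lower. At P7.5 there was 0 such member in either direction, against 4.46% of genes higher and 6.92% lower.

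Summed levels of cell markers differed between Cre-positive and Cre-negative SC in some lists and overlapped in others, and the sums rest on few genes. At P0.5, the summed FPKM of the 8 RGC markers was 565 to 859 in Cre-positive and 133 to 188 in Cre-negative SC, that of the 6 astrocyte markers 51.9 to 60.8 and 15.9 to 38.3, and that of the 6 oligodendrocyte markers 84.7 to 86.6 and 48.1 to 86.2. The markers of inhibitory neurons of the SC were at 0 in all 4 of these libraries. Markers of microglia and endothelium summed to 27.9 to 60.9 FPKM in Cre-positive and 46.5 to 82.6 FPKM in Cre-negative SC at P0.5. In the adult, where Atf4 was highest, RGC markers summed to 1.73 to 12.1 FPKM in Cre-positive and 0 to 11.5 FPKM in Cre-negative SC, astrocyte markers to 563 to 615 and 184 to 253, and oligodendrocyte markers to 735 to 990 and 184 to 4148. At P0.5 the oligodendrocyte sum was Cnp alone in each SC library. Astrocyte markers above 0 there were 4 in each Cre-positive and 3 in each Cre-negative library. Of these, Aldh1l1 was at 19.9 and 18.2 FPKM in Cre-positive and 0 and 0.0289 FPKM in Cre-negative SC. Gja1 overlapped, at 12.9 and 15.8 FPKM against 10.2 and 27.7 FPKM. In adult Cre-positive SC, 4 and 1 astrocyte markers were above 0, the 1 being Gja1, and 3 oligodendrocyte markers in each library. In adult Cre-negative SC these were 4 and 2 astrocyte markers, and 2 oligodendrocyte markers in each library. The part of these cell types in the levels of Smad4, Srebf2 and Atf4 was not tested.

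Axons and cell bodies were compared next. At P0.5, Smad4 and Srebf2 were again the members called, both higher in Cre-positive SC than in retina, among 5 tested members (Atf4, Smad1, Smad4, Srebf2 and Ddit3) and 6322 genes, of which 32.7% were called higher and 2.01% lower. Smad4 was at 0.354 and 0.231 FPKM in retina at P0.5, against 10.6 and 5.59 FPKM in axons, a difference of 2.76 (SE 0.58). Srebf2 was at 0.159 and 0.292 FPKM in retina, against 11.9 and 6.88 FPKM in axons, a difference of 3.04 (SE 0.43). Outside P0.5 Cre-positive SC, each reached 1 FPKM in only 1 library of this fit, replicate 2 of E17.5 retina. Both passed the filter only through the group where they were high. These calls were set by that selection, so no p is given for them. At E17.5, where both were listed at 0 in axons, retina held 0.0328 and 2.53 FPKM of Smad4 and 0.0708 and 1.10 FPKM of Srebf2.

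Atf4 went to and fro between the compartments. Retina libraries held 6.30 and 35.9 FPKM on E17.5, 1.76 and 1.21 FPKM on P0.5, 0 and 29.9 FPKM on P7.5, and 0.757 and 36.0 FPKM in adults. Axons were above retina without overlap at P0.5 and in the adult and below it without overlap at E17.5. At P0.5, 36.3% of genes were above without overlap, and in the adult 3.65%, while 23.7% were below at E17.5. In stage order, the differences of Atf4 were -3.92, 4.28, -2.33 and 4.44, each with an SE of 1.72, and the lowest adjusted p was 0.0773, at P0.5, by limma.

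Outside P0.5, 0 of the 5 tested members were called between axons and retina by limma. Over all genes, 0.569% were higher in axons and 0.743% lower on E17.5, 0.0158% higher and 0% lower on P7.5, and 0.0949% higher and 0% lower in adults. With an unadjusted p under 0.05 there was 1 member at E17.5 and 1 in the adult, both Atf4, and 0 at P7.5.

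The levels of the remaining members in retina were low and uneven. Jun, whose product joins AP-1 after axon injury, was at 4.10 and 0.730 FPKM in retina at E17.5 and at 0.140 and 0.364 FPKM at P0.5. Creb1, the factor of neurotrophin-driven survival, was at 0.0128 and 1.33 FPKM in retina at E17.5, and at or below 0.0924 FPKM in the other retina libraries. Ddit3, a target of ATF4, was at 3.36 FPKM in replicate 2 of P7.5 retina and 1.82 FPKM in replicate 2 of adult retina, and listed at 0 in the other 22 libraries. Stat3 was at 0.146 and 0.593 FPKM in retina at E17.5 and did not exceed 0.0586 FPKM there later. Smad2 and Smad5 did not exceed 0.102 and 0.154 FPKM in retina.

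Retina libraries of the same stage differed greatly. Replicate 2 held 7 members above 0 and replicate 1 held 1, at P7.5 as in adults. The number of genes above 0 was 8119 against 4311 at P7.5 and 8079 against 2082 in adults. Smad1 showed the reverse at P7.5, with 70.0 FPKM in replicate 1 and 0.703 FPKM in replicate 2. Of the 3 members tested in retina, Atf4, Smad1 and Ddit3, 0 were called between neighbouring stages by limma, against at most 0.0245% of 4083 genes in either direction. Smad1 had an unadjusted p under 0.05 from P0.5 to P7.5 and from P7.5 to the adult, with adjusted p-values of 1.

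At P7.5 Atf4 and Smad1 each stood high in the same numbered library of more than 1 kind. Smad1 was at 6.59, 4.63 and 70.0 FPKM in replicate 1 of the tagged SC, untagged SC and retina, and at 0, 0 and 0.703 FPKM in replicate 2. Atf4 was at 0 in replicate 1 of all 3 kinds, and at 0.220, 30.4 and 29.9 FPKM in replicate 2. Whether a number marks a shared preparation is not stated in the labels.

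Genes whose levels followed those of Atf4 and Smad1 most closely were sought among 3286 genes with 1 FPKM or more in 6 or more of the 24 libraries. Over these libraries, log2(FPKM + 1) of Atf4 was most like that of Arl6ip1, an endoplasmic reticulum membrane protein gene (Pearson r = 0.91), and of Bsg, which encodes basigin (r = 0.80). Arl6ip1 was at 96.1 and 124 FPKM in adult Cre-positive SC, 177 FPKM in replicate 1 of Cre-negative SC at E17.5 and 54.3 FPKM in replicate 2 of Cre-negative SC at P7.5, the same libraries in which Atf4 was high. Smad1 was most like Srsf9, a splicing factor gene (r = 0.87), and Mycl (r = 0.86). Srsf9 was at 135 FPKM in replicate 1 of P7.5 retina, where Smad1 was at 70.0 FPKM. The libraries share groups and differ in depth, so these values are a description only, and the other 8 members reached 1 FPKM in too few libraries.

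Consecutive stages of Cre-positive SC were also compared. From E17.5 to P0.5, 2 of 5 tested members were called higher and 0 lower, against 25.1% and 1.81% of genes. From P0.5 to P7.5, 2 were called lower and 0 higher, against 29.2% and 0.501%. These were Smad4, whose calls rest on the filter as above, and Srebf2 both times, and both comparisons share the P0.5 libraries. From P7.5 to the adult 0 members were called, against 0.0836% of genes higher and 0% lower. Atf4 had an unadjusted p of 0.00565 there, with a difference of 7.31 (SE 2.10) and an adjusted p of 1 by limma. The interaction of Cre with stage called 2 of 5 higher and 0 lower over the first interval, against 23.9% and 3.23% of genes. It called 2 of 5 lower and 0 higher over the next, against 18.7% and 2.74%, and 0 over the last, against 0% of genes, where Atf4 had an unadjusted p under 0.05.

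The run-off libraries hold the adult tissues a second time. Each condition is 1 library, so no test was made, and the intervals are exact 95% Poisson intervals that cover counting error only. In SC, 349395 reads fell on genes with run-off and 3262914 without it, so 10.7% as many. In retina there were 315009 with and 4686284 without, or 6.72%.

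Reads of the members in adult SC were few and fell on other genes than in axon-TRAP. Without run-off, SC held 129 reads of Creb1 (interval 108 to 153), 51 reads of Smad4 (38.0 to 67.1) and 1 read of Smad5, and 0 reads of the other 7. With run-off, Creb1, Smad4 and Smad5 had 0 reads, and Jun had 1. Thus 3 members had fewer reads with run-off among the 4 with a read in either library, as did 84.9% of all genes with a read. For Creb1, 0 reads after run-off puts the upper exact 95% limit of the share kept at 2.90%, and for Smad4 at 7.5%, both below the 10.7% kept over the library. To keep less than the library was common: of 4010 genes with at least 10 SC reads without run-off, only 18.8% kept more.

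Creb1 and Smad4 were listed at 0 in both adult Cre-positive SC libraries of axon-TRAP. Atf4 was the reverse. At its 152 and 199 FPKM, a library of 3262914 reads would hold 857 to 1121 reads of Atf4, and the SC library without run-off held 0, for which the Poisson limit is 3.69. The same counting found 425 reads of Atf4 in retina. The cause of the difference for Atf4 between the kinds of adult SC library was not tested.

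**Figure D3:**
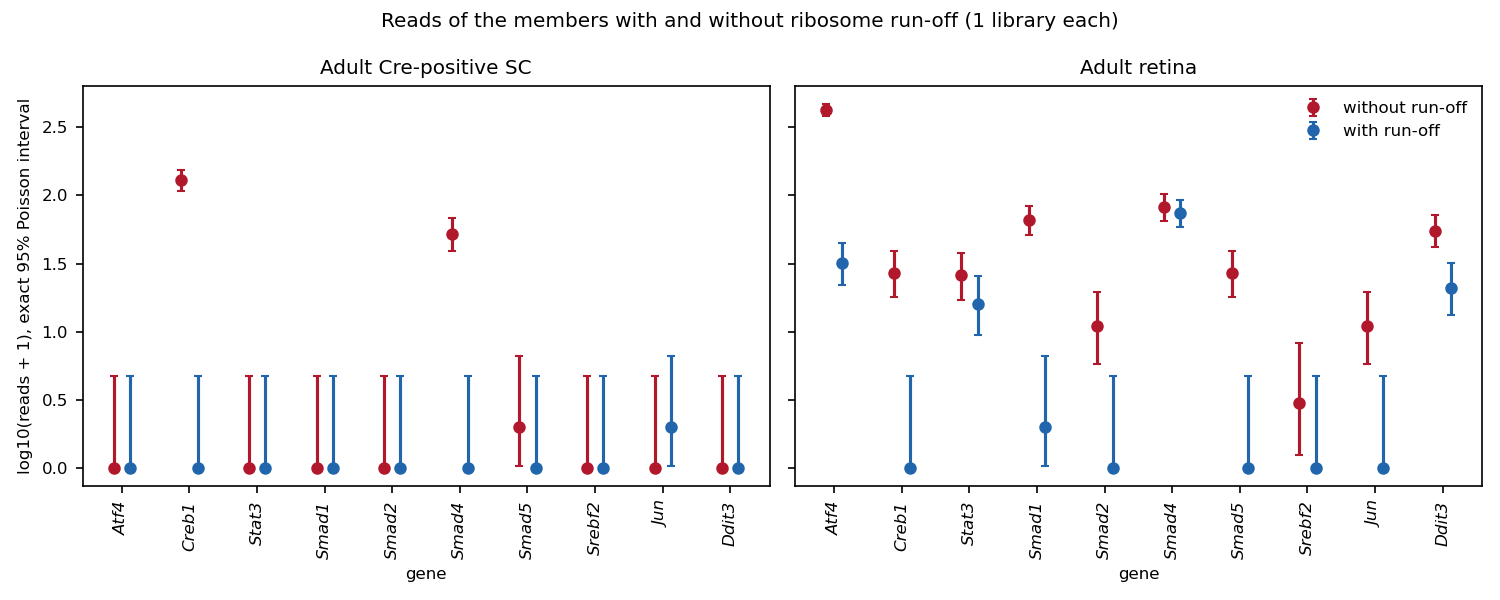
Reads of each member in the adult run-off libraries, as log10(reads + 1), in Cre-positive SC (left) and retina (right), without run-off in red and with it in blue, 1 library each. Bars are exact 95% Poisson intervals; in SC only Creb1 and Smad4 rise clear of 0, and in retina Smad4 is nearly level between the conditions while Creb1, Smad2, Smad5 and Jun drop to 0.

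In retina all 10 members had reads without run-off, and all 10 had fewer with it, as did 92.1% of genes with a read. How much was kept differed widely. Creb1 went from 26 to 0 reads, Smad5 from 26 to 0, Smad2 and Jun from 10 to 0 each, Smad1 from 65 to 1 and Srebf2 from 2 to 0. Atf4 went from 425 to 31 reads, a share of 7.29% (exact 95% interval 4.89 to 10.5), which holds the 6.72% of the library within it.

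Smad4, Stat3 and Ddit3 kept far more. Smad4 had 81 reads without and 73 with run-off, or 90.1% (interval 64.8 to 125), Stat3 25 and 15, or 60.0% (29.4 to 118), and Ddit3 54 and 20, or 37.0% (21.0 to 62.9). The lower bound of each lies above the 6.72% of the library. Among genes with at least 10 reads without run-off, 28.9% kept more than the library did, and 6.22% kept at least 50% of their reads, as Smad4 and Stat3 did. Scaled by library total (CPM), 6 of the 10 members fell with run-off, and Atf4 was at 90.7 CPM without and 98.4 CPM with it. The SC Smad4 reads, which went from 51 to 0, differ from those of retina, but that difference rests on 1 library for each condition.

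Pathways around the members were examined at P0.5, the stage with calls, through 8 lists with 169 genes in all that do not include the members. As for Smad4, the P0.5 Cre-positive libraries alone can carry a gene past the filter, so the counts of the lists are a description. Importins and retrograde carriers, which move such factors to the nucleus, had 10 of 19 tested genes called higher in Cre-positive than in Cre-negative SC and 0 lower, beside the 28.1% and 4.35% over all genes. Their median difference was 3.25 on the log2(FPKM + 1) scale, and that of all genes 0.78. Dynlrb1, a dynein light chain, was at 101 and 85.8 FPKM in Cre-positive SC, Dctn2, a dynactin subunit, at 105 and 45.6 FPKM, and Ranbp1, a regulator of the Ran cycle, at 64.5 and 48.8 FPKM, and all 3 were listed at 0 in both Cre-negative libraries.

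The CREB and ATF family and its coactivators had 4 of 8 tested genes higher and 0 lower. Creb3, an endoplasmic reticulum factor, was at 83.6 and 44.2 FPKM against 0 and 0.0601 FPKM (difference 5.91, adjusted p = 0.00100 by limma). Atf6b was at 16.4 and 6.92 FPKM and Atf6, a sensor of unfolded protein, at 5.05 and 1.92 FPKM, with both Cre-negative libraries at 0. In the integrated stress response, around ATF4 and DDIT3, 3 of 8 were higher and 0 lower. These were Asns, the asparagine synthetase gene, at 34.8 and 8.60 FPKM, Eif2b5, a subunit of the exchange factor eIF2B, at 11.8 and 8.34 FPKM, and Xbp1 at 6.62 and 3.94 FPKM. All 3 were listed at 0 in Cre-negative SC at P0.5, and their P0.5 Cre-positive libraries alone were enough to pass the filter.

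Ligands, receptors and regulators of the BMP and TGF-beta pathway went both ways, with 3 of 12 higher and 2 lower. Bmp4, a ligand, was at 42.2 and 15.9 FPKM in Cre-positive SC, Id2, a target gene, at 106 and 102 FPKM, and Smurf1, a ubiquitin ligase for receptor SMADs, at 8.93 and 3.94 FPKM. In Cre-negative SC none of these 3 exceeded 0.154 FPKM. The receptors Acvr1 and Acvr2b were lower in Cre-positive SC, at no more than 0.0424 FPKM, against 106 and 51.7 FPKM for Acvr1 and 86.6 and 53.2 FPKM for Acvr2b in Cre-negative SC. The median difference of this list, 0.15, was below that of all genes.

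The other lists were near the background or below it. In the JAK-STAT pathway 2 of 7 were higher, the kinase gene Jak1 at 10.4 and 5.53 FPKM and Stat2 at 4.01 and 0.656 FPKM, in AP-1 and JNK signalling 3 of 9, and in sterol regulation 2 of 13, with 0 lower in each. The scaffold genes Mapk8ip2 and Mapk8ip3, which link JNK to motor proteins, were at 216 and 89.3 FPKM and at 65.0 and 45.0 FPKM in Cre-positive SC, and the kinase gene Map2k4 at 22.4 and 7.13 FPKM. Fdps, a synthase of the cholesterol pathway, was at 333 and 200.4 FPKM in Cre-positive SC against 0.139 and 0 FPKM, and Mbtps2, the protease that releases SREBF2, at 9.57 and 1.05 FPKM against 0. Of 6 tested transcription factors that specify RGCs or act in them, 0 were called.

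**Figure D4:**
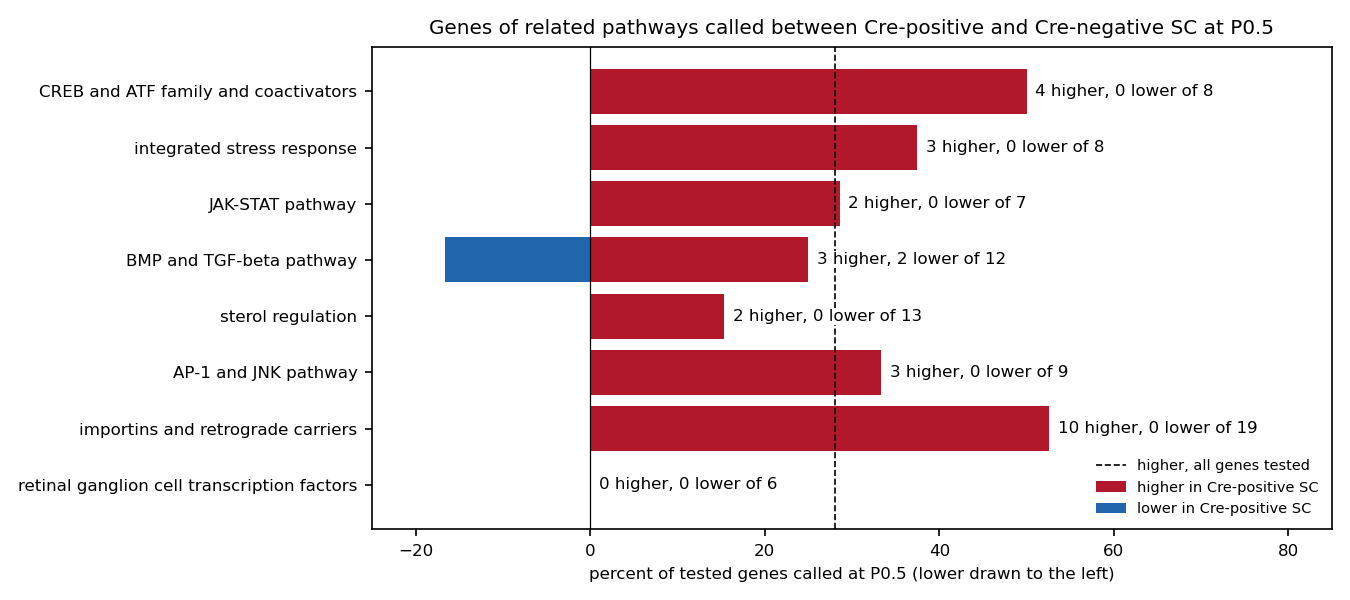
Share of the tested genes of each pathway list that limma called higher (red) or lower (blue, to the left) in Cre-positive than in Cre-negative SC at P0.5, with the counts beside the bars. The dashed line is the 28.1% of all 5983 genes called higher. Importins and retrograde carriers, with 10 of 19, and the CREB and ATF family, with 4 of 8, reach furthest past it. RGC transcription factors have 0 of 6. The counts are a description, as P0.5 Cre-positive SC alone can carry a gene past the filter.

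By P7.5 genes of several of these lists were lower again in Cre-positive SC. From P0.5 to P7.5, 11 of 19 importins and carriers, 5 of 8 CREB and ATF genes and 4 of 8 stress response genes were called lower and 0 higher, beside 29.2% of all genes lower. In AP-1 and JNK signalling 3 of 9 were lower, in sterol regulation 3 of 13, in BMP and TGF-beta 2 of 12, in JAK-STAT 1 of 7 and among RGC transcription factors 0 of 6. In sterol regulation 1 gene was called higher, Insig1, which retains the SREBF2 precursor in the endoplasmic reticulum. Between axons and retina at P0.5, 10 of 19 importins and carriers, 5 of 9 CREB and ATF genes and 5 of 10 stress response genes were higher in axons, beside 32.7%. So were 5 of 9 genes of AP-1 and JNK signalling, 4 of 15 of sterol regulation, 3 of 11 of BMP and TGF-beta, 2 of 9 of JAK-STAT and 2 of 8 RGC transcription factors. Insig1 and Skil, a repressor of SMAD signalling, were lower in axons, beside 2.01% of all genes. Outside P0.5, 1 pathway gene of the 8 lists was called between Cre-positive and Cre-negative SC, Pias4, an inhibitor of activated STATs. It was at 24.8 and 10.4 FPKM against 0 at E17.5 (difference 4.10). These Cre-positive libraries alone were enough for it to pass the filter, so no p is given.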

How the data were processed

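Ribosome-bound mRNA was measured in 24 axon-TRAP libraries (12 groups of 2) and 4 adult run-off libraries. Groups and replicate numbers came from the labels. RNA was amplified as cDNA by PCR. Per the submitters' processing notes, reads were mapped with TopHat2 2.0.12 to mm10. For the 24 libraries the authors deposited FPKM made with Cufflinks 2.2.1, and for the run-off libraries, read counts per gene from HTSeq 0.6.1p1, without normalization. How strand was set, and whether duplicates were removed, is not given in the sources used here. PCR duplicates would make reads non-independent, so intervals cover counting error only.

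FPKM was tested as log2(FPKM + 1) in R 4.3.3 (limma 3.58.1, statmod 1.5.0; mean-variance trend, robust moderation, Benjamini-Hochberg, two-sided, threshold 0.05), on genes at 1 FPKM or more in at least 2 libraries of the fit. One fit held the 16 SC libraries, one the 8 retina libraries and one Cre-positive SC with retina. The fit was tested on simulated data whose noise was normal and alike in all genes. That simulation does not cover large swings between replicates such as those of Atf4. A further 4 genes with a missing entry were dropped. NOISeq was written anew with the study's probability of 0.7, 0 FPKM being replaced by 0.5. Fragments per library were estimated from the FPKM worth of 1 fragment in genes with a single annotated transcript, and are approximate. Precision follows depth: 3 fragments on a 2 kb transcript are 0.110 to 3.11 FPKM. Transcripts came from GENCODE vM21 (GRCm38, the same assembly as mm10), with 94.6% of the listed genes matched by symbol. Tables and plots were made in Python 3.11.15 with matplotlib 3.10.9, scipy 1.17.1, pandas 2.3.3 and numpy 2.4.6.

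The members and lists were chosen with earlier results of these data known. All 10 members were named, and so were the 2 genes most like a member. Called genes were named up to 3 per list, comparison and direction, by size of difference. Of these, values are printed for those at P0.5 between Cre-positive and Cre-negative SC, 1 at E17.5 and some against retina at P0.5. Alternatives were another pseudocount, no filter, median-ratio scaling, a replicate block, each library left out, a stage fitted alone, NOISeq, and CPM or a minimum of 10 reads for the run-off libraries.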

Additional observations from a re-analysis of the deposited data

Results flagged for a closer look

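For 2 members the interaction of Cre with stage passed the threshold of limma, on the log2(FPKM + 1) scale. For Srebf2 it was 5.77 from E17.5 to P0.5, where the sign of the difference turned, and this call held with each library left out. From P0.5 to P7.5 it was -3.32, a call that was lost whichever library was left out (lowest adjusted p 0.0817 by limma), without the filter and with a replicate block. For Smad4 the values were 3.13 and -3.13. Smad4 was listed at 0 in every SC library but the 2 of P0.5 Cre-positive SC, passed the filter only through them and was not tested without either, so its values are a description. The share of all genes with a higher interaction from E17.5 to P0.5 was 23.9%, and 18.7% had a lower one from P0.5 to P7.5. Groups of 2 libraries are too small for a check of single outlying samples.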

How the results depend on the processing

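NOISeq called 1 member each on E17.5, on P7.5 and in adults, where limma called 0, and 1 at P0.5, where limma called 2. The interaction of Cre with P7.5 against P0.5 called 1 member in place of 2 without the filter and with a replicate block, Srebf2 being lost at adjusted p-values of 0.0545 and 0.0534. In retina, 6 of 10 members fell with run-off as CPM, against 10 as reads. Other settings left the counts within 1.5 times, and the block changed no other call. The study bred tagged and untagged mice in 1 litter and took axons and retina from the same animals, but replicate numbers are not said to mark either. Deviations of same-numbered Cre-positive and Cre-negative SC libraries correlated at 0.565, 0.426, 0.456 and 0.0815 from E17.5 to the adult, and those of Cre-positive SC and retina at 0.151, 0.449, 0.517 and -0.0982, above 0.1 at 3 of 4 stages. The numbers were not taken as pairs because the rule asked for more than 0.1 in every pair, which the adult did not meet.

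With each library left out in turn, counts of called members ranged from 0 to 1 between Cre-positive and Cre-negative SC at E17.5, 0 to 2 at P0.5, 0 to 3 from E17.5 to P0.5 and 0 to 2 from P0.5 to P7.5 in Cre-positive SC, 1 to 3 and 0 to 2 for the interactions over these intervals, and 1 to 2 against retina at P0.5. The lowest counts at P0.5 came without a P0.5 Cre-positive library. The Srebf2 interaction from P0.5 to P7.5 was lost with any library left out. The other comparisons stayed at 0. Without replicate 2 of Cre-negative SC at E17.5 the first interaction of Atf4 was 11.8 (adjusted p = 0.00614 by limma). Without replicate 1 of Cre-negative SC at P7.5 its interaction after P0.5 was -10.3 (adjusted p = 0.0392 by limma). The sign of Atf4 turned, never at an adjusted p under 0.05, in Cre-positive against Cre-negative SC at E17.5 (range -6.28 to 0.045) and P7.5 (-4.83 to 0.14), against retina at P7.5 (-4.80 to 0.14), and in retina from P0.5 to P7.5 (-1.31 to 3.64) and from P7.5 to the adult (-1.94 to 3.01). The causes were not tested. Median-ratio scaling moved the median of all genes in the retina comparison of P0.5 with E17.5 from -0.50 to -0.12 and changed no member's direction or call. Depth was low in all adult SC libraries, where 3 fragments on a 2 kb transcript are 0.709 to 2.88 FPKM, and lowest in replicate 1 of Cre-negative SC at E17.5, at 3.11 FPKM.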
